A study of Caenorhabditis elegans with 32 samples.

Results

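The genes of propionate breakdown in Caenorhabditis elegans are described here in young and old adults. The 10 genes comprised acdh-1, ech-6, hach-1, hphd-1 and alh-8 of the propionate shunt and pcca-1, pccb-1, mce-1, mmcm-1 and mmaa-1 of the canonical route that depends on vitamin B12. They were found by gene name in the deposited tables, directly or through the RefSeq transcript identifier. Transcripts of 9 of the 10 genes were matched, 14 transcripts among 46971 in the tables, of which 7 belong to each route. No identifier matched ech-6, which was not analysed here. The set was built around acdh-1, which was chosen because its level was far lower in old animals, so the age changes of acdh-1 are given as a description with no test. The other genes joined because they act in the same pathway, but this choice too was made with earlier results of these data known.

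Poly-A selected mRNA was sequenced from whole glp-1(e2141) animals that were 2 or 12 days into adulthood, and the 20 libraries form 10 groups of 2. The glp-1(e2141) allele blocks germline proliferation at the restrictive temperature; stocks were kept at 16 °C, and the animals were grown at 25 °C, so every group here, controls included, largely lacks a germline. The groups were glp-1(e2141) animals with no further treatment named, glp-1(e2141) animals serving as control of the mutant, animals of strain met-1(n4337); glp-1(e2141), glp-1(e2141) animals labelled L4440 (the usual empty vector of RNA interference by feeding) and glp-1(e2141) animals labelled met-1 RNAi, each at both ages. The met-1 gene encodes a methyltransferase of histone H3 lysine 36. All animals were raised on plates with E. coli OP50, carbenicillin and tetracycline, per the labels, and those taken at day 12 were fed again once on day 4; the bacteria given to the L4440 and met-1 RNAi groups are not named separately. The labels do not say whether replicates were separate cultures, so p-values measure only the spread between these libraries, which may be technical.

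Propionyl-CoA arises from the breakdown of valine, isoleucine, methionine and odd-chain fatty acids. In the canonical route propionyl-CoA carboxylase (pcca-1 and pccb-1), methylmalonyl-CoA epimerase (mce-1) and the B12-dependent methylmalonyl-CoA mutase (mmcm-1) turn it into succinyl-CoA, and mmaa-1 is the homologue of the human protein that helps load the mutase with its cofactor. In the shunt, acdh-1 oxidises propionyl-CoA to acrylyl-CoA, ech-6 hydrates it, hach-1 releases 3-hydroxypropionate, hphd-1 oxidises this to malonic semialdehyde, and alh-8 turns that into acetyl-CoA. Animals on a diet low in B12 are known to switch on the shunt genes, and a reporter of the acdh-1 promoter in the intestine is a common sensor of B12 in worm diets.

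Only the L4440 and met-1 RNAi groups have 1 value per library; in the other tables the authors gave 1 value per age for both libraries together. Levels are given in FPKM, which counts fragments relative to transcript length and sequencing depth, as the sum over the matched transcripts of a gene; the table of the L4440 and met-1 RNAi groups names no unit, and its values were taken as FPKM. Relative depth of these 8 libraries, judged from the steps between low values, ran from 0.355 in the second L4440 library of day 12 to 1.30. Expression of met-1 itself went against the labels. The day 2 libraries of L4440 had 7.80 and 5.03 FPKM and those labelled met-1 RNAi 13.025 and 27.5 FPKM. The day 12 libraries had 10.7 and 29.8 FPKM in L4440 against 80.1 and 57.1 FPKM, so the level was higher, not lower, in every library labelled met-1 RNAi than in either L4440 library of the same age. In the mutant it was 6.67 and 4.79 FPKM at day 2 and day 12, against 5.41 and 6.34 in its control; the sources used here do not say whether the matched transcripts cover the deleted part.

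In young animals the first shunt enzyme, acdh-1, stood at the top of both routes, and in old animals at the bottom. Its level was 2395 and 1958 FPKM in the L4440 libraries of day 2 and 1.46 and 3.46 FPKM in those of day 12. In the animals labelled met-1 RNAi it was 1821 and 1378 FPKM at day 2 and 1.07 and 1.08 FPKM at day 12. The day 2 means were 883 and 1492 times the day 12 means in the 2 arms, a description of the difference for which acdh-1 was chosen. These folds divide by very low day 12 values. The 3.46 FPKM came from the library with a relative depth of 0.355. The main transcript, NM_059470, ranked between 139 and 269 among the tested transcripts in the day 2 libraries and between 13200 and 16608 in those of day 12.

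**Figure D1:**
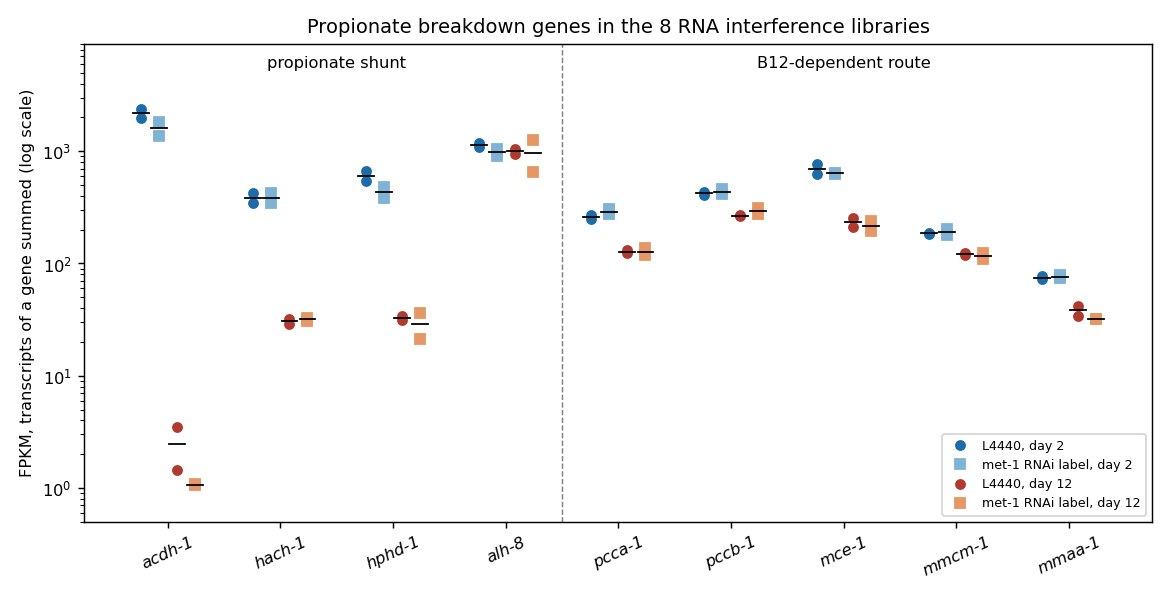
FPKM of each gene (sum over its matched transcripts, log axis) in the 8 libraries of the L4440 (circles) and met-1 RNAi (squares) groups at day 2 and day 12; each point is 1 library and each short line the mean of 2. acdh-1 goes from 1378 to 2395 FPKM at day 2 to 1.07 to 3.46 at day 12, hach-1 and hphd-1 also separate widely, and alh-8 overlaps between ages in the met-1 RNAi groups.

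The acdh-1 gene lies on chromosome I at 6497454 to 6499466 in the coordinates of the tables, for which the sources used here name no genome build. NM_059470 made up 88.6% to 89.7% of the gene's FPKM in the 4 libraries of day 2. The second transcript, NM_181994, had 247.6 and 209.4 FPKM in L4440 and 201.4 and 157.1 FPKM in the met-1 RNAi animals at day 2. At day 12 it was listed at 0 in 1 library of each arm and below 0.001 FPKM in the other, so no fold is given for it. On the log2(FPKM + 1) scale, relative to the median transcript, NM_059470 differed by −9.72 ± 0.30 (SE) between day 12 and day 2 in L4440 and by −9.90 ± 0.30 in the met-1 RNAi animals. Of the 18572 tested transcripts, 5 in L4440 and 2 in the met-1 RNAi animals, itself included, had an age change at least as far down.

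The hydrolase gene hach-1, the third step of the shunt, followed acdh-1 in direction but not in size. Its level was 422 and 346 FPKM in L4440 at day 2 and 32.2 and 29.1 FPKM at day 12. In the animals labelled met-1 RNAi it was 424 and 347 FPKM at day 2 and 32.8 and 30.6 FPKM at day 12. Young and old libraries did not overlap, and the day 2 mean was 12.5 times that of day 12 in L4440 and 12.2 times in the other arm. The transcript NM_171126, which carried 63.4% to 99.99% of the gene's FPKM, fell in both arms, with log2 changes of −4.39 ± 0.29 (SE; limma adjusted p = 8.3e-04) in L4440 and −4.26 ± 0.29 (limma adjusted p = 8.1e-04) in the met-1 RNAi animals. The minor transcript NM_171127 was estimated between 0.002 and 28.0 FPKM. Its ages overlapped in L4440, while in the met-1 RNAi animals both old libraries (0.887 and 7.42 FPKM) lay above both young ones (0.028 and 0.054 FPKM), and its changes of −1.56 and 1.45 did not pass the test (limma adjusted p = 0.584 and 0.619).

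The next enzyme, hphd-1, the 3-hydroxypropionate dehydrogenase, behaved like hach-1. Its level was 660 and 546 FPKM in L4440 at day 2 and 31.4 and 33.9 FPKM at day 12. It was 476 and 382 FPKM at day 2 and 21.4 and 36.1 FPKM at day 12 in the met-1 RNAi animals. No old library came near a young one, with day 2 means 18.5 and 14.9 times those of day 12. NM_064363 fell in both arms, with log2 changes of −4.69 ± 0.27 (limma adjusted p = 5.9e-04) in L4440 and −4.38 ± 0.27 (limma adjusted p = 7.0e-04) in the met-1 RNAi animals. The tables place this transcript in a merged locus on chromosome II that 393 transcripts share, so its own position is not given there.

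The last shunt gene, alh-8, did not pass the test in either arm. This malonic semialdehyde dehydrogenase had 1173 and 1083 FPKM in L4440 at day 2 and 951 and 1053 FPKM at day 12. In the met-1 RNAi animals it had 1043 and 914 FPKM at day 2 and 657 and 1255 FPKM at day 12. The ages overlapped in the met-1 RNAi animals, where 1 old library was the lowest and the other the highest of the 4. The main transcript NM_001026907 changed by −0.69 in L4440 (95% interval −1.45 to 0.07, limma adjusted p = 0.189) and by −0.58 in the met-1 RNAi animals (−1.34 to 0.18, limma adjusted p = 0.256). These intervals leave room for a fall of more than 2-fold, yet they lie wholly above those of hach-1 NM_171126 and hphd-1. Without the second met-1 RNAi library of day 12, which held the 1255 FPKM, NM_001026907 passed the test in the met-1 RNAi animals with a change of −1.04, and with either old library of that arm left out it passed in L4440 with −0.69. The second transcript, NM_001026908, had 47.4 and 52.7 FPKM in L4440 at day 2 and 39.1 and 39.6 FPKM at day 12, and 38.02 and 39.7 against 9.82 and 51.2 FPKM in the other arm. Its changes of −0.86 ± 0.69 and −1.24 ± 0.69 did not pass the test (limma adjusted p = 0.448 and 0.280). It passed in L4440 with −0.86 when either met-1 RNAi library of day 12 was left out, and in the met-1 RNAi animals with −2.38 without the second and not without the first (−0.06).

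The canonical route was lower in old animals throughout, by smaller amounts. The α subunit of the carboxylase, pcca-1 (chromosome X, 7657746 to 7660920), had 272 and 248 FPKM in L4440 at day 2 and 124 and 131 FPKM at day 12. In the met-1 RNAi animals its 305 and 273 FPKM at day 2 stood against 119 and 136 FPKM at day 12. Both arms separated by age, with day 2 means 2.04 and 2.27 times those of day 12. On the log2 scale, relative to the median transcript, NM_076892 fell by 1.55 ± 0.13 in L4440 and 1.66 ± 0.13 in the met-1 RNAi animals (limma adjusted p = 0.0014 and 0.0011). As deposited its changes were −1.03 and −1.17. For every gene here, levels and folds are as deposited, while log2 changes given without a scaling are relative to the median transcript.

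The β subunit, pccb-1 (chromosome X, 3089540 to 3092203), went from 436 and 405 to 263 and 268 FPKM in L4440. In the met-1 RNAi animals it went from 456 and 413 to 275 and 310 FPKM. Again no old library reached a young one. NM_171648 fell by 1.15 ± 0.12 in L4440 (limma adjusted p = 0.0031) and by 0.91 ± 0.12 in the met-1 RNAi animals (limma adjusted p = 0.0059). The latter call was lost with values as deposited (−0.42, limma adjusted p = 0.0527) and with quantile normalization (−0.52, limma adjusted p = 0.0712). The second transcript, NM_171647, did not pass the test, with changes of −3.04 ± 1.76 and −3.45 ± 1.76.

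The epimerase, mce-1 (chromosome I, 7582115 to 7583021), had the largest change of gene sum within this route in both arms. Its level was 622 and 774 FPKM in L4440 at day 2 and 255 and 210 FPKM at day 12. It was 645 and 630 FPKM at day 2 and 194 and 241 FPKM at day 12 in the met-1 RNAi animals. All 4 old libraries lay below all 4 young ones, with day 2 means 2.999 and 2.93 times those of day 12, and NM_059719 fell by 2.11 ± 0.20 in L4440 and 2.05 ± 0.20 in the met-1 RNAi animals (limma adjusted p = 0.0021 and 0.0020).

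The B12-dependent mutase, mmcm-1 (chromosome III, 3903374 to 3907636), had 188 and 183 FPKM in L4440 at day 2 and 118 and 125 FPKM at day 12. The met-1 RNAi animals had 201 and 181 FPKM at day 2 and 110.2 and 124 FPKM at day 12. The spread was narrow and the ages did not overlap, with NM_065385 falling by 1.13 ± 0.12 in L4440 and 1.19 ± 0.12 in the met-1 RNAi animals (limma adjusted p = 0.0029 and 0.0022). As deposited its changes were −0.61 and −0.70.

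Its accessory gene mmaa-1 (chromosome II, 7099740 to 7101102) had the lowest level of the route, 72.6 and 76.7 FPKM in L4440 at day 2 and 34.3 and 42.1 FPKM at day 12. In the met-1 RNAi animals it was 74.1 and 78.6 FPKM at day 2 and 31.996 and 32.3 FPKM at day 12. The ages did not overlap in either arm. NM_001027131 fell by 1.44 ± 0.17 in L4440 and 1.70 ± 0.17 in the met-1 RNAi animals (limma adjusted p = 0.0042 and 0.0023). NM_001027132 stood near the threshold, with −1.51 in L4440 (limma adjusted p = 0.0615) and a fall of 1.77 in the met-1 RNAi animals (limma adjusted p = 0.0363).

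**Figure D2:**
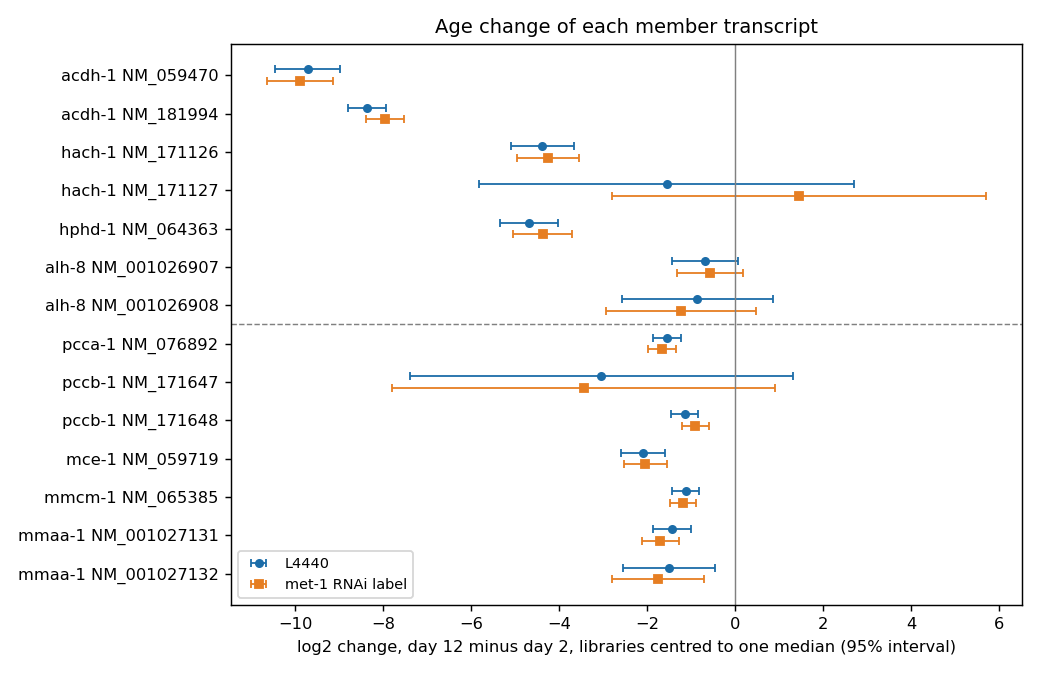
Change of each matched transcript between day 12 and day 2 on the log2(FPKM + 1) scale, every library centred to one median; points are the limma estimates from 2 libraries per group and bars their 95% intervals, with the shunt above the dashed line and the canonical route below it. acdh-1 lies furthest down, hach-1 NM_171126 and hphd-1 lie between −4.26 and −4.69, the canonical main transcripts lie between −0.91 and −2.11, and minor transcripts have wide intervals; the bars of acdh-1 describe spread and are no test.

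Read over the 12 transcripts other than those of acdh-1, 7 fell in L4440, namely 2 of 5 in the shunt and 5 of 7 in the canonical route, and none rose. Among all tested transcripts 11.9% fell in that comparison and 18.7% passed in either direction. In the animals labelled met-1 RNAi 8 of 12 fell, 2 of 5 and 6 of 7 by route, against 12.3% of all tested (20.7% in either direction), and again none rose. The median change of the 5 shunt transcripts was −1.56 in L4440 and −1.24 in the met-1 RNAi animals, against −1.51 and −1.70 for the canonical route and −0.07 and −0.01 for all tested transcripts. The −1.56 is the value of hach-1 NM_171127 itself, which ran from −3.59 to 0.46 when single L4440 libraries were left out. With transcripts summed per gene before the test, 7 of the 8 genes fell in both arms, all but alh-8, against 15.4% of all genes in L4440 and 15.5% in the met-1 RNAi animals in that fit. The estimates were −4.15 and −4.07 for hach-1, −4.71 and −4.40 for hphd-1 and −0.72 and −0.62 for alh-8, against a span from −1.08 to −2.13 for the 5 canonical genes. The age change of hach-1 NM_171126 lay within the lowest 0.754% of tested transcripts in L4440 and that of hphd-1 within the lowest 0.608%, whereas mce-1 lay within the lowest 5.58% and mmcm-1 within the lowest 14.8%. As deposited, without centring, the median transcript rose by 0.46 in L4440 and 0.48 in the met-1 RNAi animals. The medians of the canonical route were then −0.99 and −1.21. No transcript of these genes changed its direction with the scaling.

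The routes were also compared inside each library, where the scaling between libraries drops out, by dividing the FPKM of each gene by that of pcca-1. Relative to pcca-1, hach-1 was 1.27 to 1.55 in the 4 young libraries and 0.223 to 0.276 in the 4 old ones. For hphd-1 the ratio was 1.40 to 2.43 in young and 0.180 to 0.265 in old libraries. The ratio of alh-8 went the other way, from 3.35 to 4.36 in young and 5.52 to 9.22 in old libraries. The mean level of alh-8 itself was not higher in old animals (1128 and 1002 FPKM in L4440, 978 and 956 FPKM in met-1 RNAi animals). The reference pcca-1 was itself lower, with day 2 means 2.04 and 2.27 times those of day 12. Within the canonical route the ratios moved less: 1.50 to 1.63 against 2.05 to 2.31 for pccb-1, 2.12 to 3.12 against 1.61 to 2.07 for mce-1, and 0.660 to 0.736 against 0.911 to 0.957 for mmcm-1. For all 6 of these genes young and old libraries did not overlap, which in an exact two-sided permutation test within arms gives p = 0.0556, the smallest value its 36 arrangements allow, so no threshold of 0.05 could be reached (0.0648 adjusted over the 7 genes). The share of all tested genes whose ratio separates the ages in this way was not counted, so these 6 have no background beside them. The ratio of mmaa-1 was 0.243 to 0.309 in young and 0.237 to 0.322 in old libraries and overlapped (exact permutation p = 0.944). For acdh-1, given with no test, it was 5.04 to 8.82 in young and 0.0079 to 0.0265 in old libraries. This comparison and its reference gene were chosen after the values had been seen. In the groups with 1 value per age the ratios of acdh-1, hach-1 (where matched), hphd-1, alh-8 and mmcm-1 moved the same way. Other canonical ratios varied between the control, the mutant and the untreated animals. At day 2 and day 12, pccb-1 had 1.40 and 1.49, 1.58 and 1.53, and 1.51 and 1.61 in that order. For mce-1 they were 2.27 and 1.45, 2.06 and 1.22, and 1.52 and 1.69, and for mmaa-1 0.324 and 0.224, 0.470 and 0.242, and 0.369 and 0.403.

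**Figure D3:**
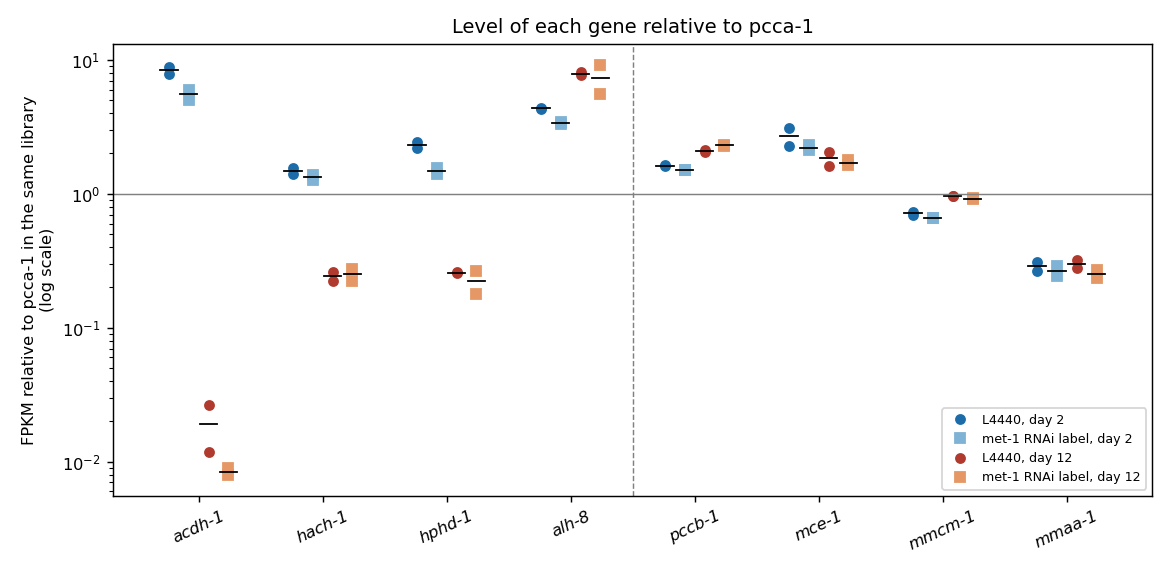
FPKM of each gene divided by that of pcca-1 in the same library (log axis, the line at 1 marks equal levels) in the L4440 (circles) and met-1 RNAi (squares) groups; points are libraries and short lines the means of 2. hach-1 and hphd-1 move from above 1 at day 2 to below 0.3 at day 12, and the canonical genes stay within 0.237 and 3.12. The ratio of alh-8 goes to 5.52 to 9.22 at day 12, over a pcca-1 level that is itself lower there.

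Because FPKM is scaled to transcript length, levels can also be ordered between genes. In L4440 at day 2 the order was acdh-1 (2176 ± 309 FPKM, SD, n = 2), alh-8 (1128 ± 64.1), mce-1 (698 ± 108), hphd-1 (603 ± 80.9), pccb-1 (421 ± 21.5), hach-1 (384 ± 53.7), pcca-1 (259.9 ± 16.6), mmcm-1 (186 ± 4.06) and mmaa-1 (74.7 ± 2.87). Neighbours that overlapped were mce-1 with hphd-1 and pccb-1 with hach-1. At day 12 the order was alh-8 (1002 ± 71.7), pccb-1 (265 ± 3.65), mce-1 (233 ± 31.97), pcca-1 (127 ± 5.12), mmcm-1 (121.6 ± 4.85), mmaa-1 (38.2 ± 5.50), hphd-1 (32.7 ± 1.74), hach-1 (30.7 ± 2.17) and acdh-1 (2.46 ± 1.42). There pcca-1 overlapped with mmcm-1, and hphd-1 with hach-1. In L4440 the 3 shunt genes that were lower thus moved below every canonical gene, and alh-8 became the most abundant of the 9. In the met-1 RNAi animals hach-1 and hphd-1 overlapped with mmaa-1 at day 12, and in the control and the mutant they lay above it (29.2 and 35.4 against 27.3 FPKM, and 25.6 and 26.6 against 25.2 FPKM).

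The animals labelled met-1 RNAi did not differ from L4440 for any of the 14 transcripts, at day 2 or at day 12, and no transcript had an age change that differed between the arms. Among all tested transcripts 0.151% were called at day 2, 0.501% at day 12 and 0.372% for the difference of the age change. For acdh-1 NM_059470 the arms differed by −0.51 at day 2 (95% interval −1.25 to 0.24, limma adjusted p = 1.00) and by −0.69 at day 12 (−1.43 to 0.06, limma adjusted p = 0.521), and the age changes by −0.18 (−1.23 to 0.87, limma adjusted p = 1.00). At day 2 both met-1 RNAi libraries had less acdh-1 than both L4440 libraries, 1821 and 1378 against 2395 and 1958 FPKM, and the same was true of hphd-1, 476 and 382 against 660 and 546 FPKM. These differences did not pass the test, and intervals of this width do not show that the arms were alike. The canonical main transcripts had the narrowest intervals; that of mmcm-1 at day 2 ran from −0.30 to 0.29.

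The other 3 tables hold different libraries, with 1 value per age and therefore no spread or test. In each of them acdh-1, and hach-1 and hphd-1 where matched, were lower in old animals by more than any canonical gene. In the control of the mutant acdh-1 had 2578 FPKM at day 2 and 2.42 at day 12, hach-1 239.8 and 29.2, hphd-1 755 and 35.4, and alh-8 1336 and 959. In the met-1(n4337) mutant acdh-1 had 2359 and 3.78 FPKM, hach-1 342 and 25.6, hphd-1 839 and 26.6, and alh-8 1584 and 1169. In the untreated animals, in the authors' deposited table, acdh-1 had 2652 and 8.28 FPKM, hphd-1 716 and 22.9, and alh-8 1507 and 761; hach-1 was not matched there. The level of alh-8 was 1.39-fold lower at day 12 in the control and 1.35-fold in the mutant, less than any canonical gene, but 1.98-fold lower in the untreated animals of the authors' deposited table, inside the canonical span. In all 5 pairs of age groups acdh-1 was thus at 1378 FPKM or more at day 2 and at 8.28 FPKM or less at day 12.

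Canonical genes were lower by 1.82-fold (mmcm-1) to 3.60-fold (mce-1) at day 12 in the control and by 2.03-fold (mmcm-1) to 5.39-fold (mmaa-1) in the mutant. In the untreated animals of the authors' deposited table the span was 1.81-fold (mmcm-1) to 2.62-fold (pcca-1). Of the transcripts other than acdh-1, 8 of 11 with values of at least 1 FPKM at an age were more than 2-fold lower in the control, against 15.6% of all such transcripts. In the mutant 10 of 12 were, against 17.9%, and in the untreated animals 6 of 9 in the authors' deposited table, against 13%. By the q-value of the authors' deposited table, 8 of the 9 were lower at q below 0.05, against 18.8% of its transcripts, among them hphd-1 (log2 fold change −4.97, q = 9.44e-21, the smallest value in that table, which 732 transcripts share) and alh-8 (−0.99, q = 0.0026). The exception in the authors' deposited table was mmaa-1 NM_001027132 (−0.37, q = 0.706).

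**Figure D4:**
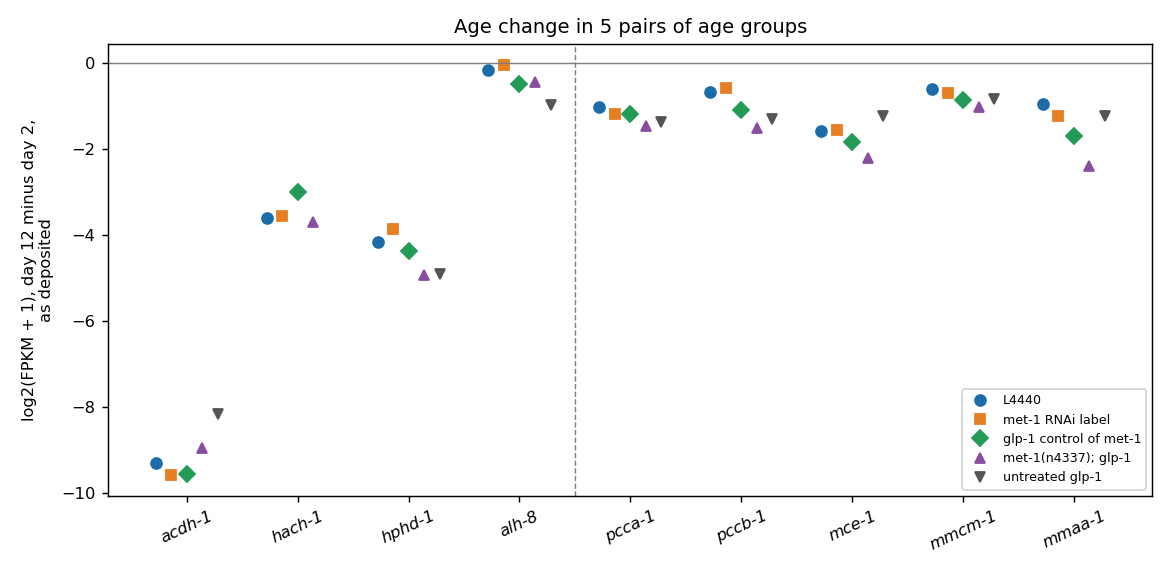
Difference of log2(FPKM + 1) between day 12 and day 2, as deposited, for each gene in the L4440 and met-1 RNAi groups (means of 2 libraries) and in the 3 tables with 1 value per age; no error can be drawn for the latter. acdh-1 lies between −8.16 and about −9.6 in all 5 pairs of age groups, hach-1 (4 pairs) and hphd-1 lie lower than the canonical genes, and alh-8 lies nearest 0 except in the untreated animals, where mmcm-1 does (−0.85 against −0.98).

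The split of pccb-1 between its transcripts did not carry over between tables. NM_171648 held 84.9% to 99.9% of the gene's FPKM in the 8 RNA interference libraries but 19.1% and 15.6% in the untreated animals of the authors' deposited table, where NM_171647 held the rest.

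The listed regulators of the shunt and of a neighbouring pathway are transcription factors and a coactivator. The nuclear receptors nhr-10 and nhr-68 are known to switch on acdh-1 when propionate builds up; nhr-68 was not matched and not analysed here. Expression of nhr-10 (NM_066153) was 36.0 and 47.8 FPKM at day 2 and 47.4 and 45.2 FPKM at day 12 in L4440. It did not separate the ages, and its change of −0.37 ± 0.19 did not pass the test (limma adjusted p = 0.233) and turned to 0.15 with values as deposited. The receptor gene nhr-114, which is known to act on the methionine and S-adenosylmethionine (SAM) cycle in animals short of B12, had 34.8 and 34.9 FPKM at day 2 and 14.3 and 15.5 FPKM at day 12 for NM_001029071 in L4440. This transcript fell by 1.70 ± 0.22 (limma adjusted p = 0.0054) in L4440 and by 1.52 ± 0.22 (limma adjusted p = 0.0072) in the met-1 RNAi animals. Of the 5 regulator transcripts 2 fell and none rose in each arm, against 11.9% and 12.3% of all tested transcripts that fell. Both were of nhr-114, and none of nhr-10 or mdt-15 passed. With values as deposited nhr-114 NM_001029072 no longer passed in L4440 (−0.87, limma adjusted p = 0.0721). The coactivator mdt-15 (NM_171134) did not pass the test, with −0.11 ± 0.15 in L4440 (limma adjusted p = 0.646), and its sign turned with values as deposited (0.41). Its second transcript, NM_171867, did not pass either, with 0.64 in L4440 and −1.51 in the met-1 RNAi animals (limma adjusted p = 0.750 and 0.433). In the latter its day 12 libraries had 0.003 and 13.3 FPKM.

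Lists of neighbouring pathways and families are read against the 11.9% and 12.3% of all tested transcripts that fell in L4440 and in the met-1 RNAi animals. With values as deposited, 1352 of all 18572 tested transcripts fell and 4193 rose in L4440. In the met-1 RNAi animals 1418 fell and 4417 rose with these values. Breakdown of branched-chain amino acids feeds propionyl-CoA only in part, through valine and isoleucine. Of the whole list of this breakdown 9 of 13 tested transcripts fell in L4440 and 10 of 13 in the met-1 RNAi animals. None was higher, and the medians were −1.27 and −1.30. The isovaleryl-CoA dehydrogenase gene ivd-1 had 178 and 199.7 FPKM at day 2 and 56.6 and 62.7 FPKM at day 12 in L4440 and fell by 2.17 ± 0.17 (limma adjusted p = 0.0013). The dihydrolipoyl transacylase gene dbt-1 fell by 1.75 ± 0.13 (limma adjusted p = 0.0010). In the methionine and SAM cycle with B12 handling, 10 of 25 fell in each arm while 1 in L4440 and 2 in the met-1 RNAi animals rose; values as deposited gave 6 lower and 3 higher in each arm. The SAM synthetase gene sams-1 had 174 and 118 FPKM at day 2 and 39.2 and 38.5 FPKM at day 12 in L4440 and fell by 2.38 ± 0.27 (limma adjusted p = 0.0034). The phosphoethanolamine methyltransferase gene pmt-2, which uses SAM to make phosphatidylcholine, fell by 2.25 ± 0.13 (limma adjusted p = 5.6e-04), and sams-3, another SAM synthetase gene, rose by 1.00 ± 0.23 (limma adjusted p = 0.0337).

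Among the enzyme families of the shunt, 4 of 10 other acyl-CoA dehydrogenase transcripts fell in L4440 and 3 of 10 in the met-1 RNAi animals, with medians of −0.70 and −0.64. Values as deposited gave 2 lower and 1 higher in L4440 and 1 lower in the other arm, with medians of −0.17 and −0.15. The family member furthest down was acdh-2 (NM_062665), with 24.4 and 10.3 FPKM at day 2 and 0.630 and 0.0891 FPKM at day 12 in L4440. It was 16.0 and 9.25 FPKM at day 2 and 4.34 and 2.43 FPKM at day 12 in the met-1 RNAi animals, and fell by 4.19 ± 0.49 in L4440 (limma adjusted p = 0.0039) and 2.12 ± 0.49 in the other arm (limma adjusted p = 0.0330). The latter call of acdh-2 was lost with values as deposited (−1.63, limma adjusted p = 0.0600) and with equal summed FPKM (−1.99, limma adjusted p = 0.0627). The sources used here do not say how reads that match more than one related gene were assigned. Of the enoyl-CoA hydratase family, to which ech-6 belongs, 2 of 10 fell in L4440 and 3 of 10 in the met-1 RNAi animals. These are few transcripts, and whether they differ from the 11.9% and 12.3% of all tested transcripts was not tested. Values as deposited gave 1 lower and 1 higher in L4440 and 2 lower and 1 higher in the other arm. Equal summed FPKM gave 2 lower in L4440 and 4 lower in the other arm, against 1764 and 1956 of all 18572 tested transcripts. In this family ech-7 (NM_170936) went from 411 and 364 to 45.1 and 45.4 FPKM in L4440 and fell by 3.59 ± 0.19 (limma adjusted p = 5.2e-04). The median of this family in L4440 was −0.37 and turned to 0.15 with values as deposited. Of the other aldehyde dehydrogenases 9 of 17 fell and none rose in each arm, with medians of −1.38 and −1.48; alh-9 (NM_065862) went from 1248 and 1115 to 212 and 189 FPKM in L4440 and fell by 3.08 ± 0.12 (limma adjusted p = 3.0e-04).

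**Figure D5:**
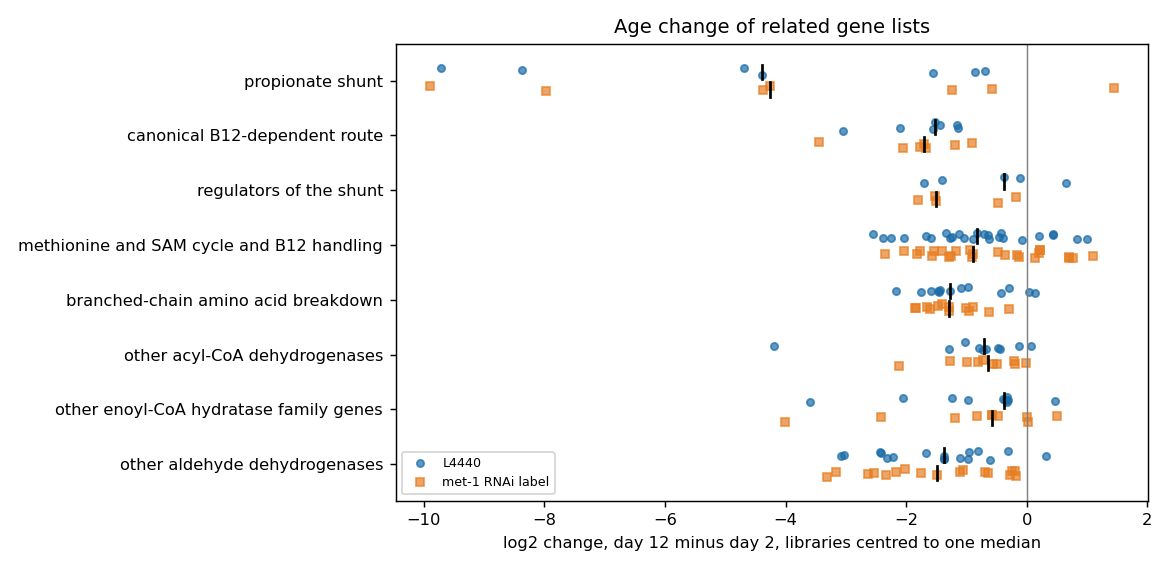
Change between day 12 and day 2 on the log2(FPKM + 1) scale, libraries centred to one median, of the tested transcripts of each gene list in L4440 (circles) and met-1 RNAi (squares) animals; each point is a transcript and each black line a median. Both routes and their neighbours lie mostly below 0, with acdh-1 alone near −10; list medians include acdh-1 in the shunt, the points carry no test, and the medians of the regulators and the enoyl-CoA hydratases in L4440 turn above 0 with values as deposited.

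The transcripts whose profile over the 8 libraries lay nearest to acdh-1 NM_059470 were sought by Euclidean distance between log2(FPKM + 1) values, each less its own mean. The second acdh-1 transcript, NM_181994, lay at 2.49 with 2 tested transcripts nearer and was left out of the list. The nearest of other genes were ilys-5 (1.75), pud-3 (2.41), spp-17 (2.55), NM_067008 (3.53), which has no symbol in the tables used, and col-20 (3.76). They lie on chromosomes X, V, I, III and II. As an example, spp-17, a gene of the saposin-like family, had 2803 and 2823 FPKM at day 2 and 6.97 and 8.25 FPKM at day 12 in L4440. Among the other genes of the 2 routes the nearest were hphd-1 (7.51, with 75 tested transcripts nearer) and hach-1 NM_171126 (7.91, with 93 nearer), and pcca-1 was at 11.6 with 1202 nearer. These distances describe likeness in 8 libraries that mostly differ by age. The likeness of ilys-5 did not carry over to every other group. It had 0.751 and 0 FPKM at day 2 and day 12 in the untreated animals, but 7408 and 24.2 in the control. In the untreated animals spp-17 had 3281 and 15.1 FPKM.

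In RNA of whole animals, fewer cells of a type and less RNA per cell cannot be told apart. Markers of the intestine, where acdh-1 is expressed, were present in every library: the summed FPKM of 8 of the 10 listed genes in L4440 was 5226 and 8578 in young and 8225 and 10104 in old animals, and in the met-1 RNAi animals 6065 and 6256 in young and 4689 and 10645 in old ones, with none at 0 in all libraries. Of all 18572 tested transcripts in L4440, 2210 fell and 1260 rose, and 4193 rose with values as deposited. Of 9 tested transcripts of intestinal markers 2 fell and 1 rose in L4440, and 3 rose with values as deposited. Among them elo-2 fell by 3.33 ± 0.17 (limma adjusted p = 4.6e-04), ges-1 fell by 2.22 ± 0.34 (limma adjusted p = 0.0092) and pept-1 rose by 1.41 ± 0.26 (limma adjusted p = 0.0161) in L4440. The summed hypodermal markers, 8 of 10 listed, went from 2230 and 2495 to 326 and 327 FPKM in L4440 and from 2175 and 2245 to 315 and 331 FPKM in the met-1 RNAi animals, a difference carried by col-19, the adult cuticle collagen gene, with 2093 and 2385 against 212 and 192 FPKM in L4440. Body wall muscle markers summed to 2554 and 3068 FPKM at day 2 and 1208 and 1627 at day 12 in L4440. Neuronal markers summed to 1058.45 and 1321 FPKM at day 2 and 2108 and 2171 at day 12 in L4440, and in the met-1 RNAi animals to 1178 and 1187 in young and 2665 and 5707 in old libraries. All these sums are of values as deposited. Of 20 tested neuronal transcripts 0 rose and 0 fell in L4440 (median 0.32), and 1 rose and 1 fell in the met-1 RNAi animals. With values as deposited 5 rose in L4440, and 2 rose and 1 fell in the met-1 RNAi animals. Among all tested transcripts 4417 rose and 1418 fell in the met-1 RNAi animals with these values. Sperm markers summed to 5.08 and 6.45 FPKM in young and 26.001 and 34.8 in old L4440 libraries. Most of the old sums was spe-11, with 20.8 and 26.7 FPKM in old against 0.771 and 0.889 FPKM in young L4440 libraries. Of 3 tested sperm transcripts 1 rose in L4440, and 3 of the 7 genes stayed below 1 FPKM in all libraries. Germline markers summed to 10.8 to 14.3 FPKM in all day 2 libraries and 30.1 to 36.7 in all day 12 libraries. The part of these shifts in the levels of acdh-1 and the other genes was not tested.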

How the data were processed

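The members and gene lists were chosen with earlier results of these data known. The authors deposited 4 tables. FPKM is the unit of 3 of them, per the file headers; the table of the L4440 and met-1 RNAi libraries names no unit, and its values were taken as FPKM because Cuffdiff is listed in the submitters' processing notes, along with CASAVA 1.8, BWA, TopHat and TopHat2. The log2 fold change and the q-value of the isoform table were deposited by the authors; the sources used here do not give the test behind them, the genome build, the annotation, strandedness or scaling. Reads of overlapping or antisense genes therefore cannot be told apart. Chromatin samples were not analysed here.

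Names were matched through RefSeq accessions or the isoform table's gene column; 2 hach-1 transcripts and alh-8 NM_001026908 were not matched in the isoform table. Transcripts with a status other than OK (1112) were left out, and 18572 with FPKM of at least 1 in at least 2 of 8 libraries were tested; all 14 matched transcripts passed. limma 3.58.1 (R 4.3.3; lmFit, eBayes with trend, two-sided) was fitted to log2(FPKM + 1), which understates changes of low transcripts, with 4 groups of 2 libraries in 1 fit and every library centred to one median. "Rose" and "fell" mean a Benjamini-Hochberg adjusted p below 0.05 over all tested transcripts. The fit was tested on simulated data and missed part of the changed transcripts there at every size, so a transcript that did not pass is not shown to be unchanged. All transcripts of the members were named. Of each other list at most the 2 largest rises and the 2 largest falls called in L4440 were eligible for naming, together with the 5 profiles nearest to acdh-1. The regulators were also all described. Alternatives were other scalings, pseudocounts and filters, a replicate block, gene sums and each library left out. Depth of the pooled tables is unknown, and no interval from read counts could be given.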

Additional observations from a re-analysis of the deposited data

How the results depend on the processing

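None of the age changes that passed the test among these genes turned direction under any alternative run. In met-1 RNAi animals 8 transcripts other than acdh-1 passed in the main fit and 6 with values as deposited. In the canonical route alone these were 6 of 7 and 4 of 7. In L4440 the number was 7 in both. The number of transcripts other than acdh-1 that passed stayed at 7 to 10 in L4440 and in met-1 RNAi animals when each library was left out, and 0 passed between the arms or for the difference of the age change under every alternative; with limma at an unadjusted p below 0.05, 644, 1919 and 1057 of all tested transcripts passed for the arms at day 2, at day 12 and for that difference. The counts over all tested transcripts moved more. For age in L4440, 3470 became 5545 as deposited and 6763 with no filter on low values, and 2020 to 3243 with a library left out. For age in met-1 RNAi animals, 3841 became 5835, 7054 and 1777 to 3621 in the same order. The share higher among calls went from 36.3% to 75.6% as deposited, 47.1% with quantile normalization and 46.8% with equal summed FPKM in L4440, and from 40.4% to 75.7%, 48.2% and 48.6% in met-1 RNAi animals. The 28 calls between arms at day 2 became 8 with a filter of FPKM 5 and 1 to 37 with a library left out; the 93 at day 12 became 18 and 11 to 170; the 69 for the difference of the age change became 8 and 10 to 73, and 14 with pseudocount 0.1. With the replicate number as a block the counts were 3300 and 3638 for age, 2 and 51 between arms and 7 for the difference; same-numbered libraries did not deviate together (r from −0.06 to 0.13 over 6 pairs of groups), so the numbers share no known source. Under the block mmaa-1 NM_001027132 passed in L4440, as it did with equal summed FPKM, with the stricter filter and without either met-1 RNAi library of day 12. In met-1 RNAi animals it no longer passed as deposited (−1.28) or when any library but the second of met-1 RNAi at day 12 was left out (−1.17 to −2.02). The causes were not tested. The estimate for acdh-1, whose day 12 values lie near the pseudocount, moved with it, from −10.26 at 0.1 to −8.42 at 5 for NM_059470 in L4440.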
